A study of Mus musculus with 17 samples.

Results

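The microRNAs (miRNAs) of the miR-106b-25 and miR-106a-363 clusters were examined in mouse serum. The members were all mouse assays of a quantitative PCR panel that name miR-106b, miR-93, miR-25, miR-106a, miR-20b or miR-363, for either strand of the hairpin. This gave 7 of 357 miRNA assays. The miR-106b-25 cluster had 5 assays (miR-106b-5p, miR-106b-3p, miR-93-5p, miR-93-3p and miR-25-3p) and the miR-106a-363 cluster had 2 (miR-106a-5p and miR-363-3p). No value of miR-20b was analysed here. Serum came from 17 mice. The wild-type group was 3 FVB/N mice in good health. The transgenic line AT-ATX, which carries Autotaxin, gave a tumor-free group of 7 and a tumor group of 7 whose tumors arose spontaneously. Autotaxin is secreted and produces lysophosphatidic acid, a lipid that signals through cell surface receptors. The promoter that drives the transgene, the strain background of the transgenic mice, their ages and the kinds of tumor were not stated in the labels. Comparing tumor-free with wild-type mice sets carriers of the transgene without tumors against mice that lack it. The transgene cannot be told apart there from strain background or age. Comparing tumor with tumor-free mice sets mice with and without tumors side by side among carriers, where age cannot be told apart either.

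miRNAs are short RNAs that guide Argonaute proteins to messenger RNAs, chiefly through the seed, the bases near the 5′ end that pair with the target. The miR-106b-25 and miR-106a-363 clusters are paralogs of the miR-17-92 cluster, which is known for promoting cell proliferation and is often raised in tumors. Members of these clusters repress, among other targets, the cell cycle inhibitor p21 (miR-106b and miR-93) and the death-promoting protein Bim (miR-25). In the blood, miR-25 and miR-93 are also abundant in red blood cells, so serum can take them up when red cells break during or after sampling.

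Both clusters hold copies of the same seed types, which is why the mature sequences are shown here, 5′ to 3′ and with the seed (bases 2 to 8) in capitals. They were taken from RefSeq for the build GRCm38.p6, where 7 of the 7 members had an entry. The first 3 lines are members with the seed AAAGUGC, and the fourth is miR-17-5p of the miR-17-92 cluster for comparison. The next 3 lines are miR-25-3p, miR-363-3p and their relative miR-92a-3p, with the seed AUUGCAC. The last pair are the 3p strands of the miR-106b and miR-93 hairpins, which have seeds of their own.
miR-106b-5p: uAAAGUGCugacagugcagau
miR-93-5p: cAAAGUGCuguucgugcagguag
miR-106a-5p: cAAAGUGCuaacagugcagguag
miR-17-5p: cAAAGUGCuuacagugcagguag
miR-25-3p: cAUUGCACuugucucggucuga
miR-363-3p: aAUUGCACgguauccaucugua
miR-92a-3p: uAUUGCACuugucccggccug
miR-106b-3p: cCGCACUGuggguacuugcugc
miR-93-3p: aCUGCUGAgcuagcacuucccg

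On the panel, 5 mouse assays had the seed AAAGUGC and 4 had AUUGCAC. Counted from 1 at the 5′ end, the only change from miR-17-5p to miR-106a-5p was U10A, so that 22 of 23 bases were identical. How far the assays for such close sequences read each other's RNA was not tested. From miR-25-3p to miR-92a-3p, 18 of 21 aligned bases were identical, against 9 of 22 from miR-25-3p to miR-363-3p, which share little beyond the seed. In RefSeq's annotation of GRCm38.p6, the 3 hairpins of the miR-106b-25 cluster lie at chr5:138165321-138165818 on the minus strand, within a stretch of 498 bases. This stretch is inside the bounds of the protein-coding gene Mcm7 (chr5:138164583-138172111), which encodes a subunit of the replicative helicase. The miR-106a-363 cluster has 6 hairpins at chrX:52741693-52742567 on the minus strand, within 875 bases, and no protein-coding gene spans it in that annotation.

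The measured value was the quantification cycle (Ct), the PCR cycle at which the signal crosses a threshold, so that a lower Ct means more template. Between 312 and 356 miRNA assays were detected per mouse. The level of an assay was how many cycles earlier it crossed the threshold than the panel mean, that is, than the average Ct of 252 miRNA assays with a value in every mouse. It is a log2 scale, relative to the panel and not per volume of serum. More releasing cells cannot be told apart from more RNA released per cell. A question mark stands in the label of tumor replicate 5. This mouse also stood apart in several Ct gaps of the members, so the differences, ranges and counts that it moves most are given without it too. In tumor-free replicates 4, 5 and 7 and tumor replicate 1 the decimals of the values had 1 ending across both plates, against 2 in the other 13 mice. The labels give no batch. The labels of transgenic mice also carry a number whose meaning they do not state, and 2 such numbers are shared by 3 tumor-free and 3 tumor mice.

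The 5p strands of miR-106b and miR-93 and the 3p strand of miR-25 were among the strong signals of the panel. By median Ct over the 17 mice, with the lowest first, miR-93-5p was at place 6 of 357 (23.3), miR-25-3p at place 9 (23.6) and miR-106b-5p at place 26 (24.9). The remaining members were much weaker. miR-93-3p was at place 138, miR-106a-5p at 166, miR-106b-3p at 238 and miR-363-3p at 287. Of the 7 members, 5 were detected in all mice, miR-106b-3p in 16 (not in tumor replicate 1) and miR-363-3p in 14 (not in wild-type replicate 3, tumor-free replicate 2 or tumor replicate 1). Ct places of different assays also depend on the efficiency of each primer set, so they order signals and not molecule numbers.

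The level of miR-25-3p, a seed relative of miR-92a, was 6.53, 7.65 and 6.61 in the 3 wild-type mice. It ran from 5.0 over a median of 5.16 to 6.50 in the tumor-free mice and from 4.74 over 5.56 to 8.41 in the tumor mice. All 7 tumor-free mice thus lay below all 3 wild-type mice, by a narrow margin (6.50 against 6.53), whereas the tumor mice spanned both groups. By raw Ct the first 2 groups overlapped, with 20.5 to 23.4 in wild-type mice and 22.9 to 24.6 in tumor-free mice. Of all 338 tested assays, 12.7% had tumor-free and wild-type levels that did not overlap. The difference between tumor-free and wild-type mice was -1.41 ± 0.68 (log2, SE; 95% interval -2.82 to 0.01), 2.66 times lower, with an adjusted p of 0.218 by limma. The exact two-sided permutation test gave p = 0.00833 for it, the smallest that 7 mice against 3 allow, and 0.0828 after adjustment over all assays. Between tumor and tumor-free mice the difference was 0.76 ± 0.52 (adjusted p = 0.479, limma), and it was 0.40 without tumor replicate 5.

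miR-93-5p, which shares its seed with miR-17, had levels of 6.39, 7.89 and 6.79 in the wild-type mice. Its lowest, median and highest levels were 5.33, 5.51 and 6.68 in tumor-free mice and 5.05, 5.78 and 7.79 in tumor mice. Of the tumor-free mice, 5 of 7 lay below all wild-type mice, and the others overlapped with them. The share of tested assays with such a count was not computed. The difference was -1.24 ± 0.63 for tumor-free against wild type (adjusted p = 0.235, limma) and 0.55 ± 0.49 for tumor against tumor-free (adjusted p = 0.629). The latter was 0.31 without tumor replicate 5, and 0.31 without tumor replicate 4.

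miR-106b-5p, first in the order of its cluster, had levels of 4.16, 6.71 and 4.82 in the wild-type mice. It ran from 4.32 over 4.45 to 5.79 in tumor-free mice and from 2.78 over 3.90 to 6.75 in tumor mice. Here the tumor group lay lowest by median: 5 of 7 tumor mice were below every tumor-free mouse and the other 2 were above every one. The share of tested assays with such a split was not computed. The SD of the level was 0.625 in tumor-free and 1.474 in tumor mice. The difference of means between these groups was -0.45 ± 0.58 (adjusted p = 0.766, limma), and -0.19 without tumor replicate 5, the mouse with the lowest level. Tumor-free and wild-type mice differed by -0.45 ± 0.75 (adjusted p = 0.739), with a value of 0.29 when wild-type replicate 2 was left out.

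The weaker strands of the same hairpins were read on the other plate of the panel. miR-93-3p had levels of -0.62, 0.84 and -0.13 in the wild-type mice, between -1.89 and 0.21 (median -1.34) in tumor-free mice and between -2.20 and 0.50 (median -1.01) in tumor mice. miR-106b-3p had levels of -3.51, -1.44 and -1.92 in wild-type mice, between -5.01 and -2.70 (median -3.49) in tumor-free mice and between -4.59 and -2.98 (median -4.03) in the 6 tumor mice that had a value. The groups overlapped for both strands, with the wild-type group highest by mean. For miR-106b-3p the difference of tumor against wild type was -1.63 ± 0.59 (95% interval -2.85 to -0.40), 3.09 times lower, with the smallest adjusted p of any member in any comparison (0.0877, limma). Without wild-type replicate 1 it was -2.24, with an adjusted p of 0.0373, and this was the only call of a member between groups over all fits that left out 1 mouse.

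Of the X-linked members, miR-106a-5p had levels of -2.83, 0.71 and -1.92 in the wild-type mice, a wide spread for 3 mice. It lay between -4.48 and -0.68 (median -1.45) in tumor-free mice and between -3.19 and -0.75 (median -1.40) in tumor mice. The groups overlapped, and differences were 0.24 ± 0.62 for tumor against tumor-free, -0.57 ± 0.80 for tumor-free against wild type and -0.32 ± 0.80 for tumor against wild type (adjusted p between 0.688 and 0.857, limma). Leaving out wild-type replicate 2 turned the last pair to 0.46 and 0.71. The difference of tumor against tumor-free was 0.38 without tumor replicate 5 and -0.18 without tumor-free replicate 4.

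miR-363-3p, the last hairpin of its cluster, was near the detection limit, with Ct values between 31.9 and 36.5. Its levels were -6.87 and -5.58 in the 2 wild-type mice that had a value. They lay between -5.10 and -3.44 (median -4.85) in 6 tumor-free mice and between -6.27 and -3.21 (median -4.99) in 6 tumor mice. All 6 tumor-free mice were above both wild-type mice, and the tumor mice overlapped with both groups. Levels of tumor-free and wild-type mice did not overlap in 12.7% of all 338 tested assays. With only 2 wild-type values such a separation arises more easily than with 3. The difference of tumor-free against wild type was 1.61 ± 0.71 (95% interval 0.12 to 3.11; adjusted p = 0.187, limma), the reverse of the sign seen for the other 6 members. This sign rests on the scaling: the Ct itself was 33.8 ± 0.11 in wild-type mice (SD, n = 2) and 33.8 ± 0.95 in tumor-free mice (n = 6), and the difference of raw Ct, turned so that more template is positive, was -0.03. By raw Ct, the median over all tested assays was -1.07 in this comparison, against 0.03 by level.

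**Figure D1:**
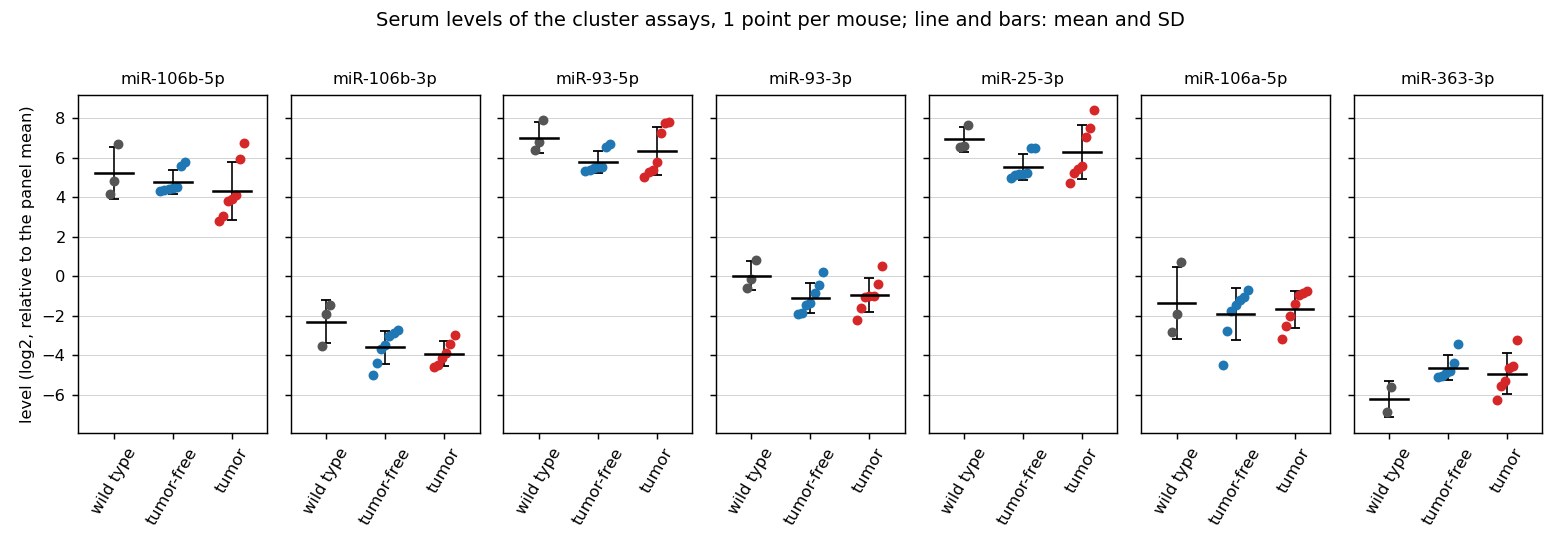
Level of each of the 7 assays in each mouse (log2, relative to the panel mean), in wild-type, tumor-free and tumor mice, with the mean as a line and the SD as bars; mice in which an assay was not detected have no point. The tumor-free points of miR-25-3p all lie under the wild-type points, the tumor points of miR-106b-5p spread from 2.78 to 6.75, and miR-363-3p is the only assay with its wild-type mean lowest.

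None of the 7 members passed the threshold of 0.05 in any of the 3 comparisons by limma with Benjamini-Hochberg adjustment over 338 assays. Over all tested assays, 1.48% were called in tumor against tumor-free mice, 0.592% in tumor-free against wild-type mice and 8.28% in tumor against wild-type mice. At an unadjusted p under 0.05 the counts of members were 0, 2 and 1 in the same order. Over all 338 tested assays these counts were 57, 76 and 85. By the exact permutation test with the same adjustment 0 members passed as well. The median difference over the members was 0.13, -1.12 and -0.69 in these comparisons, beside 0.14, 0.03 and 0.19 over all tested assays. The last 2 comparisons share the wild-type mice, and leaving out wild-type replicate 2, which had the highest level of every member among the wild-type mice, moved all members but miR-363-3p towards or past 0 in both. With 3 wild-type mice the intervals were wide: that of miR-106a-5p for tumor-free against wild type ran from -2.24 to 1.11.

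**Figure D2:**
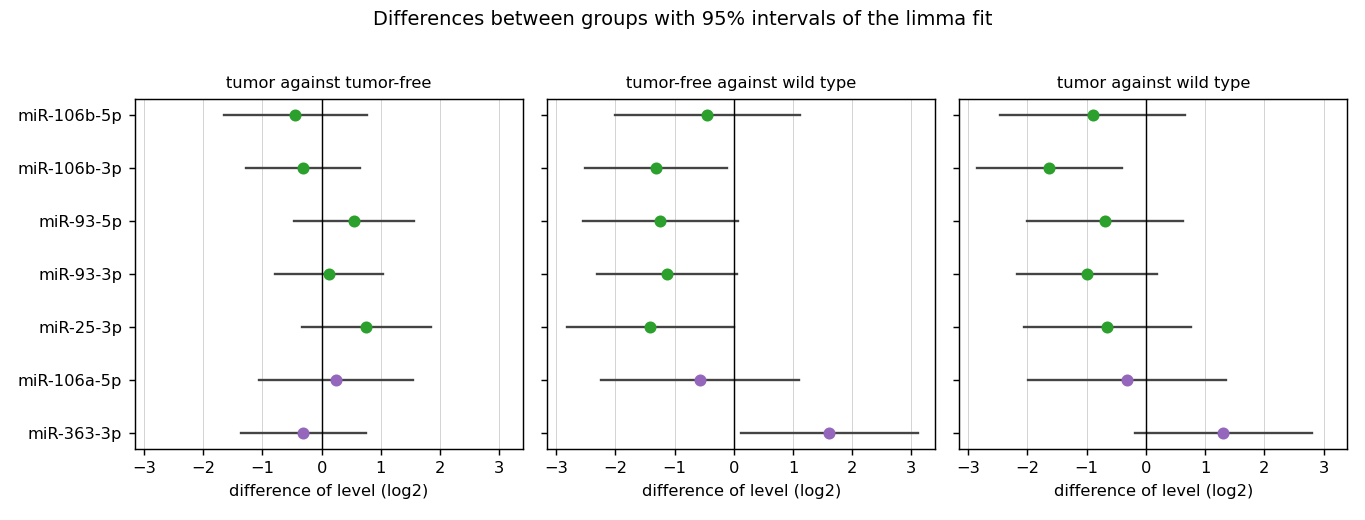
Difference of level (log2, first group minus second) for each assay in the 3 comparisons, with 95% intervals of the limma fit; green marks the miR-106b-25 cluster and purple the miR-106a-363 cluster. For tumor against tumor-free mice all 7 intervals include 0, and for tumor-free against wild-type mice only those of miR-106b-3p and miR-363-3p exclude it, on opposite sides and before adjustment.

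The relatives on the panel, 10 mouse assays of miR-17, miR-18a, miR-19a, miR-19b, miR-20a and miR-92a, gave a like picture. Of these 10, 0 were called in each comparison. At an unadjusted p under 0.05 (limma) there were 0, 4 and 1, beside 57, 76 and 85 of all 338 tested assays. The median difference of the relatives was 0.40 for tumor against tumor-free, -1.08 for tumor-free against wild type and -0.66 for tumor against wild type. miR-20a-5p, a seed copy of miR-106b, differed by -1.16 ± 0.54 between tumor-free and wild-type mice (adjusted p = 0.202). miR-92a-3p and miR-19b-3p, which are also encoded in the X-linked cluster, differed by -0.88 ± 0.66 (adjusted p = 0.442, limma) and -0.94 ± 0.46 (adjusted p = 0.218). Of the 10 relatives, 8 were below 0 in that comparison, and miR-17-3p (0.87) and miR-19b-1-5p (0.69) were above.

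Because red cell miRNAs can enter serum by hemolysis, each level was also set against an index of hemolysis with the group in the fit. The index subtracts the Ct of miR-451a from that of miR-23a-3p. miR-451a is made from a hairpin that is highly expressed in maturing red cells, and miR-23a-3p is little affected by hemolysis. The index was 5.61 ± 2.07 cycles in wild-type mice (SD, n = 3), 4.38 ± 0.84 in tumor-free mice (n = 7) and 3.97 ± 1.97 in tumor mice (n = 7). Its highest values were in wild-type replicate 2 (7.82) and tumor replicate 4 (7.10). The mean level of miR-23a-3p was 5.0, 5.73 and 6.20 in wild-type, tumor-free and tumor mice, and that of miR-451a 10.6, 10.1 and 10.2. Wild-type replicate 2 also had the lowest miR-23a-3p level of all mice (3.82). The index thus follows both assays, and miR-23a-3p is also among the platelet and myeloid markers read below. How far the index reads hemolysis alone was not tested. Members called for a slope on the index numbered 4 of 7, and all 4 rose with it, against 46.1% of 336 assays called, 21.7% with a rise and 24.4% with a fall. The slope was 0.59 ± 0.12 log2 units per cycle for miR-106b-5p (adjusted p = 0.000886, limma). It was 0.53 ± 0.08 for miR-93-5p (adjusted p = 0.000177), 0.52 ± 0.10 for miR-25-3p (0.000924) and 0.40 ± 0.09 for miR-93-3p (0.00265).

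The other 3 members did not pass. The slope of miR-106b-3p was 0.28 ± 0.12 (adjusted p = 0.0675), that of miR-106a-5p 0.28 ± 0.18 (adjusted p = 0.216) and that of miR-363-3p -0.06 ± 0.15 (adjusted p = 0.795), and the intervals of the last 2 reached 0.67 and 0.27. Whether the slopes differ between the clusters was not tested. Of the 10 relatives, 8 were called, all with a rise, the exceptions being miR-19b-3p and miR-19b-1-5p. These calls rest on scaling by the panel. On raw Ct and with the spike-in controls as the reference, 0 of 336 assays were called, with 91 and 78 at an unadjusted p under 0.05, and the slope of miR-93-5p was 0.43 and 0.44 (adjusted p = 0.187 and 0.239). Scaling by 5 reference miRNAs moved the median slope of all assays from -0.06 to -0.36. Of the members, miR-93-5p alone then remained called with a rise (0.23, adjusted p = 0.0401, limma). miR-363-3p was called with a fall (-0.38, adjusted p = 0.032) that lay near the median of all assays. Calls were common under this scaling, as an unadjusted p of 0.0217 for miR-93-5p still passed after adjustment. The share of all assays called there is not given here, so these calls are not read as particular to the members. With the index in the group comparisons 0 members were called. Differences of tumor against tumor-free then grew to 0.77 for miR-93-5p (unadjusted p = 0.00943, adjusted p = 0.0632, limma) and 0.97 for miR-25-3p (0.0106 and 0.0632). In that fit 92 of all tested assays had an unadjusted p under 0.05. The others were -0.21 for miR-106b-5p, -0.29 for miR-106b-3p, 0.29 for miR-93-3p, 0.36 for miR-106a-5p and -0.30 for miR-363-3p. This fit was not run without tumor replicate 5. With the index, the difference of tumor against wild type was 0.07 for miR-106b-5p, 0.18 for miR-93-5p, 0.20 for miR-25-3p and 0.14 for miR-106a-5p.

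**Figure D3:**
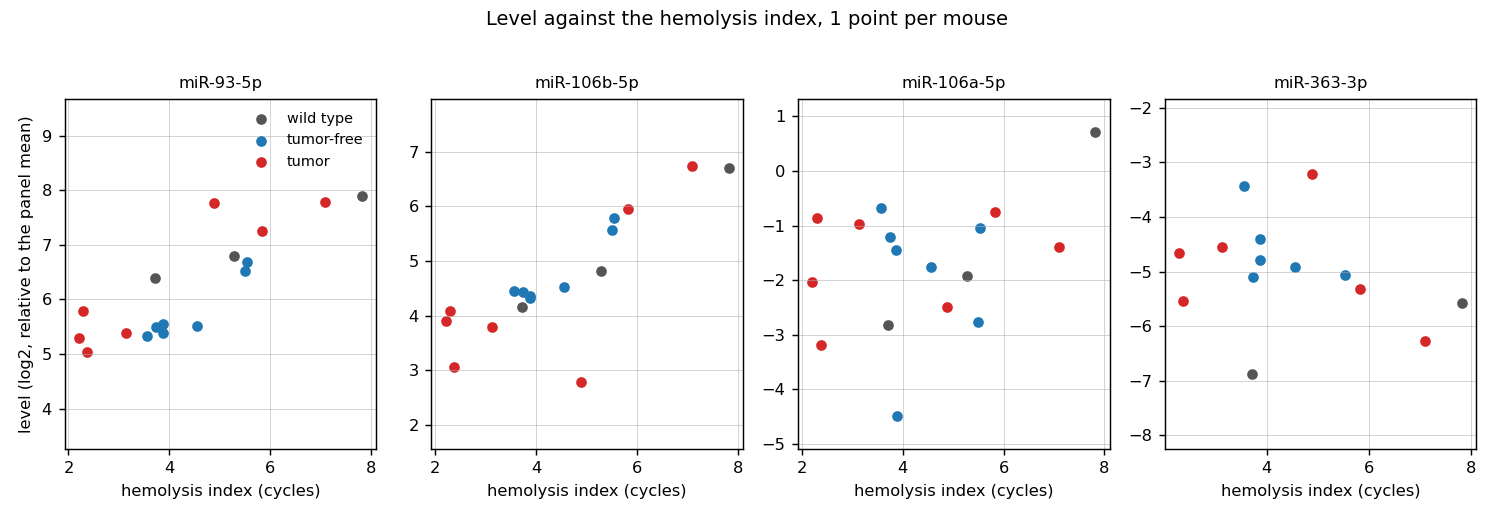
Level (log2, relative to the panel mean) against the hemolysis index (cycles) for 4 of the assays, 1 point per mouse, coloured by group; the vertical axes have the same span and different positions. miR-93-5p and miR-106b-5p rise with the index, at 0.53 and 0.59 log2 units per cycle, with tumor replicate 5 (index 4.89) standing low for miR-106b-5p at 2.78, while miR-106a-5p and miR-363-3p show no such rise past the threshold.

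The Ct gap between 2 assays of the same mouse needs no reference, so it was used to compare members with each other. Its size depends on the primers and only its variation between mice was read, as a description. miR-93-5p and miR-25-3p, which come from neighbouring hairpins and have different seeds, kept a nearly fixed gap. It was 0.15, -0.23 and -0.18 cycles in wild-type mice, between -0.41 and -0.05 (median -0.29) in tumor-free mice and between -0.31 and 0.64 (median -0.21) in tumor mice, where the highest was 0.14 without tumor replicate 5. The SD within groups was 0.25 cycles, while the level of miR-25-3p had an SD within groups of 1.03. In tumor-free mice the SD of this gap was 0.12, and 13 of 18454 pairs of same-plate assays (0.0704%) had a smaller one.

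miR-106b-5p kept a tight gap to miR-25-3p in tumor-free mice, and the gap was larger in most other mice. Its Ct minus that of miR-25-3p was between 0.55 and 0.91 cycles (median 0.74, SD 0.11) in tumor-free mice. It was 2.38, 0.95 and 1.79 cycles in the wild-type mice, so that all 7 tumor-free mice lay below all 3 wild-type mice. In tumor mice it was between 0.76 and 5.63 (median 1.47), and 6 of 7 lay above all tumor-free mice, the exception being tumor replicate 4. A larger gap means less miR-106b-5p relative to miR-25-3p. The SD of this gap was 0.72 in wild-type and 1.65 in tumor mice, where 24.7% and 62.8% of same-plate pairs had a smaller one. Without tumor replicate 5 the tumor mean was 1.33 ± 0.34 (SD, n = 6) against 0.74 ± 0.11 in tumor-free mice (n = 7). In the same 6 tumor mice the SD of miR-93-5p minus miR-25-3p was 0.16. For miR-106b-5p minus miR-25-3p, 5 of 6 tumor mice were above all tumor-free mice. Without the 4 mice of 1 decimal ending the count was 5 of 6 against 4 tumor-free mice. Such separations were not rare on this panel: of 18454 same-plate pairs, 4.59% had at least 6 of 7 tumor mice beyond all tumor-free mice on 1 side, and 15.0% had tumor-free and wild-type mice that did not overlap.

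The gap between miR-106b-5p and miR-93-5p, which share a seed, gave the same order of groups. It was 2.23, 1.18 and 1.97 cycles in wild-type mice, between 0.87 and 1.23 (median 0.98) in tumor-free mice and between 1.04 and 4.99 (median 1.60) in tumor mice. Again 6 of 7 tumor mice lay above all tumor-free mice, and without tumor replicate 5 it was 5 of 6, with a highest gap of 1.99. Against miR-20a-5p, the seed copy from the miR-17-92 cluster, miR-106b-5p was at 1.48, 0.21 and 0.88 cycles in wild-type mice, between -0.06 and 0.52 in tumor-free mice and between -0.40 and 3.41 in tumor mice, where 5 of 7 were above all tumor-free mice and 1 was below. Without tumor replicate 5 the highest tumor value was 1.31, and 4 of 6 were above. miR-93-5p kept its gap to miR-20a-5p more closely, with an SD within groups of 0.29 cycles against 0.83 for miR-106b-5p. Much of the latter came from tumor replicate 5: without it, the SDs in tumor mice were 0.343 and 0.605, against 0.407 and 1.196 with it.

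The strands of 1 hairpin were compared across the 2 plates, so a difference between plates also enters these gaps. miR-93-3p crossed the threshold 7.07 ± 0.60 cycles after miR-93-5p (SD over 17 mice), between 6.28 and 8.83, with the highest value in tumor replicate 5 and 7.66 as the highest in the other tumor mice. miR-106b-3p followed miR-106b-5p by 8.20 ± 1.00 cycles (16 mice), between 6.47 and 9.85. The groups overlapped in both strand gaps. In tumor replicate 5, miR-106b-3p lay 7.37 cycles after miR-106b-5p, within the range of the other mice, while miR-106b-5p lay 5.63 cycles after miR-25-3p, outside it.

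Between the X-linked members, miR-363-3p lay 4.05 and 6.29 cycles after miR-106a-5p in 2 wild-type mice, between 0.30 and 4.02 in 6 tumor-free mice and between 0.72 and 4.87 in 6 tumor mice, where the lowest was 2.34 without tumor replicate 5. miR-106a-5p minus miR-17-5p, assays for sequences that differ by U10A alone, ran from -1.24 to 2.52 cycles over the 17 mice, both ends among the tumor-free mice. In that group its SD was 1.38 cycles, and 86.6% of the 18454 same-plate pairs had a smaller one. It was 0.51 in wild-type and 0.73 in tumor mice, where 14.7% and 7.94% of the pairs had a smaller one. miR-106a-5p lay 6.39 ± 1.18 cycles after miR-106b-5p over all mice. miR-363-3p lay 13.4 and 13.2 cycles after its seed relative miR-25-3p in 2 wild-type mice, between 8.44 and 11.6 in 6 tumor-free mice and between 9.81 and 13.8 in 6 tumor mice. The tumor-free mice were thus below both wild-type mice and the tumor group overlapped with both. The share of pairs given above does not cover miR-363-3p, which was not detected in every mouse.

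**Figure D4:**
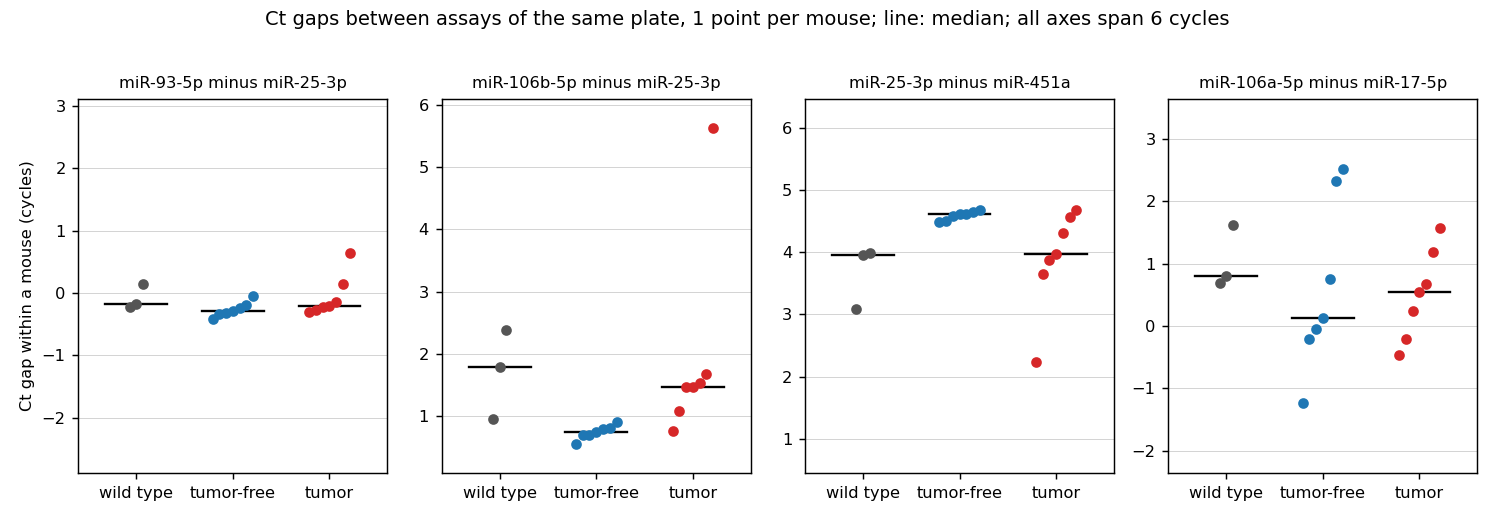
Ct gap within each mouse (cycles) between 4 pairs of assays read on the same plate, with the median of each group as a line; every vertical axis spans 6 cycles. The gap of miR-93-5p and miR-25-3p stays between -0.41 and 0.64 in all mice, that of miR-106b-5p and miR-25-3p separates 6 of 7 tumor mice from the tumor-free mice, that of miR-25-3p and miR-451a has an SD of 0.07 in tumor-free mice against 0.51 in wild-type and 0.82 in tumor mice, and that of miR-106a-5p and miR-17-5p is wide in the tumor-free group.

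The mouse miRNAs whose levels varied most like the miR-106b-25 cluster were ranked by Pearson r over 17 mice after group means were taken off, with the mean of the 4 members detected in all mice. The 5 highest of 223 assays were miR-451a (0.97), miR-16-5p (0.96), miR-20a-5p (0.94), miR-3107-5p (0.93) and miR-140-3p (0.93). miR-451a and miR-16-5p are among the most abundant miRNAs of red blood cells. The r with the hemolysis index was 0.94 and that with miR-106a-5p 0.32. All assays of a mouse share the panel mean and the serum, so such values have no p here. For miR-106a-5p the 5 highest were miR-744-5p (0.79), miR-301b-3p (0.68), miR-191-5p (0.64), miR-19b-3p (0.63) and miR-181c-5p (0.59), and r with the members of the other cluster was between 0.15 for miR-25-3p and 0.50 for miR-106b-5p.

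Gaps of all same-plate pairs were tighter in tumor-free mice, with a median SD of 0.80 cycles, than in wild-type (1.22) and tumor mice (1.43). The gap to miR-451a was read against this background. The Ct of miR-25-3p minus that of miR-451a was between 4.49 and 4.68 cycles (median 4.61, SD 0.07) in the 7 tumor-free mice, and 2 of 18454 same-plate pairs (0.0108%) had a smaller SD in that group. It was 3.09, 3.99 and 3.95 cycles in the wild-type mice, all below the tumor-free mice, and between 2.23 and 4.68 (median 3.98) in the tumor mice, of which 5 of 7 were below all tumor-free mice. In these groups 14.6% and 12.4% of the pairs had a smaller SD. Without tumor replicate 5 the tumor mean was 4.18 ± 0.41 (SD, n = 6), and 4 of 6 were below. miR-16-5p minus miR-451a was also lower in all wild-type than in all tumor-free mice. It was -0.36, 0.56 and 0.13 cycles in wild-type mice, 0.75 to 1.04 in tumor-free mice and 0.05 to 1.15 in tumor mice. Of the 18454 same-plate pairs, 15.0% had tumor-free and wild-type mice that did not overlap. The gap of miR-106b-5p to miR-451a overlapped between wild-type mice (5.46, 4.94 and 5.74 cycles) and tumor-free mice (5.05 to 5.49), and 5 of 7 tumor mice (5.12 to 7.86) lay above all tumor-free mice. Without tumor replicate 5 the highest tumor value was 5.77, and 4 of 6 were above. The share of pairs with 5 of 7 tumor mice on 1 side was not computed, here or for miR-106b-5p against miR-20a-5p.

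Marker miRNAs of other sources were read beside these levels. The red blood cell markers on the panel were miR-451a, miR-16-5p and miR-144-3p, 3 of 6 names searched, and all 3 were detected in every mouse. Their mean level was between 8.60 and 10.8 in wild-type mice, 7.77 and 9.74 in tumor-free mice and 7.19 and 10.6 in tumor mice. The 5 platelet and myeloid markers were between 4.37 and 5.55, 4.85 and 5.70, and 5.07 and 6.69 in the same order. The 4 liver markers, among them the hepatocyte miRNA miR-122-5p, were between 4.19 and 5.65 in wild-type mice, 3.77 and 4.96 in tumor-free mice and 2.03 and 3.98 in tumor mice. The lymphocyte list had 1 marker detected in all mice, miR-150-5p, between 2.89 and 3.74, 3.21 and 6.97, and 2.19 and 6.96, and the 2 muscle markers detected in all mice ran from -2.13 to 6.55. The part that these sources have in the levels of the members was not tested.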

How the data were processed

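Ct values of 365 assays (357 miRNAs, 8 controls) in 17 mice were deposited by the authors as cycle numbers, not normalized. Per the labels' protocols, RNA came from 50 µL of serum and SYBR Green PCR ran for 40 cycles on 2 panel plates. The authors' threshold setting was not stated in the labels. Empty cells were taken as not detected. Levels on a log2 scale were computed from the deposited Ct as described. Testing needed a value in 2 or more wild-type, 5 or more tumor-free and 5 or more tumor mice, which left 338 assays and set aside 19. All groups entered 1 two-sided limma fit (version 3.58.1, R 4.3.3), with Benjamini-Hochberg adjustment per comparison. The slope fit left out the 2 assays of the index. Errors beside differences and slopes are SE. Plates were taken from the decimals of the values. The fits were tested on simulated data. Members, relatives (miR-17, 18a, 18b, 19a, 19b, 20a and 92a, either strand) and marker lists were chosen with earlier results of these data known. The miRNAs named are all members, the relatives, and the 5 most alike per cluster. Exact tests and gaps were computed in Python 3.11.15 (scipy 1.17.1, pandas 2.3.3, numpy 2.4.6). Alternatives covered scaling, missing values, filters, the fit and samples left out. Replicate numbers follow accession order and pair no samples. Fits with the shared number in the transgenic labels as a block (random over all mice, or fixed in transgenic mice), the panel mean per plate, and the gaps without tumor replicate 5 or the 4 mice of 1 decimal ending were added after seeing the data.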

Additional observations from a re-analysis of the deposited data

Results flagged for a closer look

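Of 50 sets of a group and a quantity, 6 held a mouse far from the others. The limit was Dixon's 95% critical value, 0.568 for 7 samples and 0.625 for 6. For a single set, chance gives about 1 in 20. The sets share mice and assays, and tumor replicate 5 gave most of the 6, so no excess over chance is read. In tumor replicate 5 the Ct of miR-106b-5p lay 5.63 cycles after miR-25-3p, where the other tumor mice were between 0.76 and 1.68. It lay 4.99 cycles after miR-93-5p (others 1.04 to 1.99) and 7.86 after miR-451a (others 5.12 to 5.77). In the same mouse miR-25-3p lay 2.23 cycles after miR-451a (others 3.64 to 4.68), and its level was the highest of all mice (8.41). Some relatives on the same plate also lay far after miR-25-3p there, so that gap is not particular to miR-106b-5p. The Ct was 20.3 for miR-25-3p, 24.8 for miR-19a-3p and 28.2 for miR-18a-5p in this mouse. In tumor replicate 4 it was 22.8, 23.8 and 27.5 in the same order. miR-93-5p stayed close to miR-25-3p in tumor replicate 5 (Ct 21.0). In tumor-free replicate 4 miR-363-3p lay 0.30 cycles after miR-106a-5p, against 2.76 to 4.02 in the others. In tumor-free replicate 6 miR-106b-5p lay 5.05 cycles after miR-451a, against 5.31 to 5.49 in the others.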

How the results depend on the processing

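No member was called between groups under any alternative setting (16 for tumor against tumor-free and 15 for each of the others), and 1 call appeared when each mouse was left out in turn (miR-106b-3p, tumor against wild type, adjusted p = 0.0373 by limma without wild-type replicate 1). Replicate numbers follow accession order and pair nothing, but the labels of transgenic mice share 2 numbers across groups, of unstated meaning. With that number as a random block (limma, consensus correlation 0.07, wild-type mice each alone) 6, 3, 28 and 162 assays were called in the 3 comparisons and the slope, and no call of a member changed. As a fixed block in transgenic mice, where 3 tumor-free and 3 tumor mice carry the contrast with 4 residual degrees of freedom, 0 assays were called for tumor against tumor-free (21 at an unadjusted p under 0.05) and miR-106b-5p was 0.57, against -0.45 with no block. Counts of called assays moved more. For tumor against tumor-free, 5 assays became 0 with reference miRNAs, raw Ct, spike-ins, the exact permutation test or without the 4 mice of 1 decimal ending (44, 17, 14, 57 and 30 at an unadjusted p under 0.05), 13 with the hemolysis index in the fit, 8 with only the groups compared, and 2 to 10 with 1 mouse left out (it moved by over 1.5 times for tumor mice 3, 4, 5 and 7 and for tumor-free mice 1, 2, 3 and 6). For tumor-free against wild type, 2 became 0 with raw Ct, spike-ins or the exact test (63, 55 and 85 unadjusted), 1 with the panel median, a trended robust variance or without the 4 mice, 4 with reference miRNAs or missing values at Ct 37, 5 with the index, 7 with the panel mean per plate, 15 with only the groups compared, and 1 to 9 with 1 mouse left out (9 without wild-type replicate 1; it moved by over 1.5 times for all mice but tumor-free mouse 4 and tumor mice 2, 3, 6 and 7). For tumor against wild type, 28 became 15 with raw Ct, 5 with spike-ins, 1 with only the groups compared, 14 without the 4 mice, 0 with the exact test (45 unadjusted), and 10 to 39 with 1 mouse left out (10 without wild-type replicate 3, 13 without wild-type replicate 2 and 16 without tumor replicate 2). For the slope, 155 became 0 with raw Ct or spike-ins (91 and 78 unadjusted), and 127 to 172 with 1 mouse left out. The causes were not tested.

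Signs turned for these members. In tumor against tumor-free mice, miR-106b-5p was 0.57 with the label number as a fixed block. There miR-106b-3p was 0.13 with spike-ins and 0.018 without the 4 mice, and miR-93-3p -0.20 with reference miRNAs and -0.24 with raw Ct. miR-106a-5p was -0.079 and -0.117 with the same, and miR-363-3p 0.042 with spike-ins. With 1 mouse left out, miR-93-3p ranged from -0.12 to 0.34 and miR-106a-5p from -0.18 to 0.50. In tumor-free against wild-type mice, miR-106b-5p was 0.27 with the index and -0.98 to 0.29 with 1 mouse left out, miR-106a-5p -1.31 to 0.46 likewise, and miR-363-3p -0.028 with raw Ct and -0.011 with spike-ins. In tumor against wild-type mice with the index, miR-106b-5p was 0.066, miR-93-5p 0.18, miR-25-3p 0.20 and miR-106a-5p 0.14. There miR-363-3p was -0.56 with raw Ct, and miR-106a-5p -1.06 to 0.71 with 1 mouse left out. For the slope with reference miRNAs, miR-106b-3p was -0.039 and miR-106a-5p -0.022, and miR-363-3p was -0.20 to 0.13 with 1 mouse left out. Other member values kept their sign in every setting run. The number of mice, above all 3 wild-type mice, limits the precision, and miR-363-3p and miR-106b-3p were read close to the detection limit.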
